A study of Mus musculus with 24 samples.

Results

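Continuous capillaries, as in muscle, heart and lung, are lined by ECs with an unbroken wall and a full basement membrane, whereas the liver sinusoid is lined by ECs with open pores and little basement membrane. GDF2 (BMP9) and BMP10 are circulating ligands of the TGF-β family that signal in ECs through the receptor ALK1 and SMAD proteins, among them the shared partner SMAD4. The genes described here are marks of continuous capillary ECs, or were seen beside such marks, and are mostly scarce in sinusoidal ECs. They are the 10 genes Cd34, Ly6c1, Ly6a, Rgcc, Prnd, Lrrc3b, Fam107a, Meox2, Stc1 and Plod2 among 48820 entries in the count tables, and each symbol was found once in every table. They were chosen for a gain in sorted ECs in each library and for their low level in whole liver, so their EC and whole liver values are a description. No p is given for them there, and where the call rule of the fit over all genes is mentioned, nothing is read from it. Only their values in macrophages, which the choice did not use, were tested.

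The bulk RNA-seq data covered 24 libraries from livers of C57BL/6 mice (C57BL/6J background in the methods of the study) in 8 groups of 3 mice each. Gdf2/Bmp10 HSC-KO mice (labelled Bmp9/10-HSC-KO) lack Gdf2 and Bmp10 through floxed alleles and Lrat-Cre, which acts in hepatic stellate cells (HSCs). ECs (CD45- CD31+) and liver macrophages (CD45+ Ly6C- F4/80+ CD64+) were sorted from HSC-KO and control mice of 8 to 10 weeks, and whole liver was taken at 12 weeks. A second set of liver macrophages came from Smad4FF cKO mice, in which Vav1-Cre deletes floxed Smad4 in blood-forming cells and their progeny, and from Smad4FF controls, at 8 to 10 weeks as well. The deletion in HSC-KO mice is thus not directed at the ECs or macrophages that were sequenced. Their controls are labelled control or BMP9/10 control in the sample titles and WT in the sample descriptions. The labels do not give the alleles of these controls. By the mouse codes in the labels, ECs and macrophages of 3 mice were both sequenced.

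Library totals were 60911527 to 110879155 counts, and 3 counts, the floor used below, equalled 0.0258 to 0.0524 CPM (counts scaled to library size). In whole liver, Gdf2 was 9.38 to 22.5 CPM in controls and 2.12 to 3.85 CPM in HSC-KO mice, and Bmp10 was 2.00 to 3.28 CPM against 0.0938 to 0.262 CPM. Smad4 was 35.3 to 42.8 CPM in Smad4FF macrophages and 12.6 to 17.2 CPM in cKO macrophages. The EC libraries carried the pan-endothelial genes at a summed 14499 to 15198 CPM in controls and 11271 to 12356 CPM in HSC-KO mice. The EC library of HSC-KO replicate 1 stood apart. A list of 15 sinusoidal genes summed to 58603 CPM in it, against 5667 and 3488 CPM in replicates 2 and 3 and 174850 to 268820 CPM in controls. Most of this sum was Dnase1l3 (51970 CPM in replicate 1, 2565 and 1082 CPM in replicates 2 and 3). The other 14 genes, summed after these values were seen, gave 6633, 3103 and 2406 CPM in the 3 replicates and 31503 to 34257 CPM in controls.

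The 10 genes lie on 6 chromosomes (GRCm38, GENCODE annotation). Of these, 4 are on chromosome 14, where Fam107a spans 8296274 to 8318023, Lrrc3b 15357515 to 15438987, Stc1 69029238 to 69041804 and Rgcc 79288756 to 79301645. Ly6a (74994877 to 74998031) and Ly6c1 (75044018 to 75048830) are neighbours in the Ly6 cluster on chromosome 15. The others are Cd34 on chromosome 1 (194938819 to 194961279), Prnd on chromosome 2 (131950861 to 131956130), Plod2 on chromosome 9 (92542223 to 92608428) and Meox2 on chromosome 12 (37108540 to 37179534). Prnd shares 97.2% of its exonic bases with Prn on the same strand, so reads of the pair cannot be assigned with certainty, and the sum of both is given beside Prnd.

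RefSeq promoters (GRCm38.p6) were listed for 7 of the 10 genes (Cd34, Ly6c1, Rgcc, Prnd, Lrrc3b, Fam107a and Meox2). The 250 bases before the first listed start are printed 5′ to 3′ on the strand of the gene for the 4 genes without a count in any control EC library (for Prnd, none assigned to it rather than to the overlapping Prn), and for Cd34, the most widely used mark of continuous capillary ECs. The positions are chr2:131950611-131950860 (plus strand) for Prnd, chr14:15438988-15439237 (minus) for Lrrc3b, chr14:8317608-8317857 (minus) for Fam107a, chr12:37108290-37108539 (plus) for Meox2 and chr1:194938571-194938820 (plus) for Cd34. Capitals mark matches, on either strand, to the hypoxia-inducible factor core ACGTG (Prnd, Lrrc3b, Fam107a), the TATA box TATAAA (Meox2) and the ETS-type core CAGGAA (Cd34).
Prnd: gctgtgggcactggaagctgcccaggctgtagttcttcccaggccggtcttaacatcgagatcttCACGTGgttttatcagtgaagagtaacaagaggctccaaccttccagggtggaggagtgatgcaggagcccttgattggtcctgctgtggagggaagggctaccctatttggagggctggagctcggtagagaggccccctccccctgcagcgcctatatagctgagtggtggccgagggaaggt
Lrrc3b: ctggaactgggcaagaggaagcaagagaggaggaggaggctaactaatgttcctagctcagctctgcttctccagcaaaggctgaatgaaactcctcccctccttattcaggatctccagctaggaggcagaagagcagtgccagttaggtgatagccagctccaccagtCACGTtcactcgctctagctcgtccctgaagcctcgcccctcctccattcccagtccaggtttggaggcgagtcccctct
Fam107a: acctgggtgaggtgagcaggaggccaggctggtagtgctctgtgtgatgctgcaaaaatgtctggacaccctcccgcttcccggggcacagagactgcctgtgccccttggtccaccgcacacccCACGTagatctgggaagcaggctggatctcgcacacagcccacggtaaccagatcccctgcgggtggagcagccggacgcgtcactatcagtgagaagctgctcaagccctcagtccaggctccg
Meox2: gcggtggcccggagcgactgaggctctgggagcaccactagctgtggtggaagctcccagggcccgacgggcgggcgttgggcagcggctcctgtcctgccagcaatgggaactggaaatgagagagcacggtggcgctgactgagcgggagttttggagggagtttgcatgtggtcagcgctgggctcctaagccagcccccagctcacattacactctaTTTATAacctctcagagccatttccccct
Cd34: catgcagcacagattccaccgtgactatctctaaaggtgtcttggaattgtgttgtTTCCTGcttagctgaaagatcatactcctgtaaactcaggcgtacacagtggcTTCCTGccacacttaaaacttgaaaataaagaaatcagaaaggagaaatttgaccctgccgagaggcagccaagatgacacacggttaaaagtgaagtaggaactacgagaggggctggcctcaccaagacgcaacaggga

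Among the 7 genes, ACGTG was found in 3, CAGGAA in 1 and TATAAA in 2 (Ly6c1 and Meox2). The palindromic BMP-SMAD element GGCGCC was found in none of them. Of 32851 listed promoters of the same length, 16.6% held ACGTG, 25.7% held CAGGAA, 12.4% held TATAAA and 9.59% held GGCGCC. These shares are per promoter, whereas a gene was counted if any of its listed starts matched. Ly6c1 and Prnd had 2 listed starts and Fam107a had 3, so the counts and shares are not on the same scale. A match describes letters in the window only. The printed windows differ in composition, with 46.4% G and C in Cd34, 56.0% in Lrrc3b, 58.0% in Prnd, 62.0% in Meox2 and 62.8% in Fam107a, beside a median of 52.4% over all listed promoters.

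In sorted ECs all 10 genes were higher in every HSC-KO library than in any control library, by 2.91-fold for Ly6a and by 2460-fold for Rgcc (ratios of group means, n = 3 per group). For Prnd, which is read with Prn, the ratio of the summed pair was 109. Prnd, Lrrc3b, Fam107a and Meox2, 4 of the 10, had 0 counts in all 3 control libraries. All 10 met the rule for differentially expressed genes (DEGs; edgeR quasi-likelihood, Benjamini-Hochberg adjusted p below 0.05 and a log2 fold change beyond 1 in size). Of the 16053 genes tested, 7.68% met it in the higher direction and 20.2% were higher without overlap between groups. Since the genes were chosen on this contrast, nothing is read from these counts. The plot of CPM by EC library shows the 10 genes side by side.

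**Figure D1:**
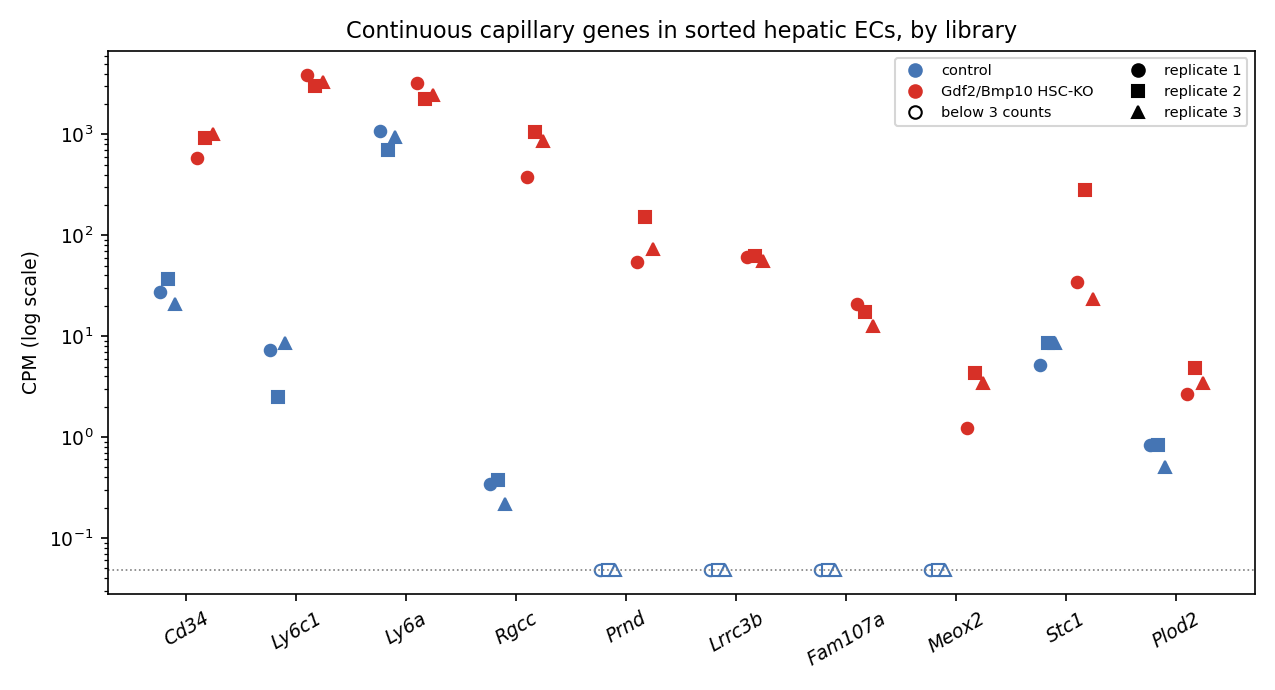
CPM (log axis) of the 10 continuous capillary genes in each control (blue) and HSC-KO (red) EC library, with the replicate given by the symbol shape. Open symbols on the dotted line are libraries below 3 counts, which hold all controls of Prnd, Lrrc3b, Fam107a and Meox2, and the red symbols lie above the blue ones for every gene.

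Among the surface proteins, Cd34, a sialomucin of capillary ECs and blood progenitors, was 27.5, 36.6 and 20.9 CPM in the control libraries and 580, 929 and 1008 CPM in the HSC-KO libraries. The lowest HSC-KO library was 15.8 times the highest control, and the log2 fold change was 4.89 (SE 0.32). Ly6c1 encodes a GPI-anchored Ly6 protein of capillary ECs and, with its paralog Ly6c2, the Ly6C antigen. It was 7.34, 2.47 and 8.53 CPM in controls and 3843, 3037 and 3296 CPM in HSC-KO mice, a ratio of means of 555. Its control libraries differed among themselves by 3.45-fold, whereas the HSC-KO libraries lay within 1.27-fold of each other.

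Ly6a (Sca-1), another GPI-anchored Ly6 protein of ECs and progenitors, was the one member already abundant in control ECs. It was 1081, 706 and 942 CPM in controls and 3217, 2253 and 2460 CPM in HSC-KO mice. The groups did not overlap, and its log2 fold change of 1.54 (SE 0.24) was the smallest of those fitted for the 10 genes. Counting of related copies bears on this family. The longest reading frames of Ly6c1 and Ly6c2 were 80.9% identical, with a longest identical run of 188 bases, and those of Ly6c1 and Ly6a were 67.4% identical. Adding Ly6c2 to Ly6c1 gave 2.60 to 8.64 CPM in controls and 3099 to 3920 CPM in HSC-KO mice, so Ly6c1 made up nearly all counts of the pair in ECs.

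Prnd encodes doppel, a GPI-anchored relative of the prion protein that is found on developing brain ECs. Its 3 control libraries held 0 counts and its HSC-KO libraries held 5132, 10879 and 5981 counts (54.4, 152 and 73.1 CPM). Prn was counted the other way round, with 4, 152 and 5 counts in controls and 0 in each HSC-KO library. For the sum of the pair the ratio of means was 109, and the lowest HSC-KO library was 22.2 times the highest control. Lrrc3b, a leucine-rich repeat membrane protein, was likewise at 0 in controls. Its HSC-KO libraries held 5720, 4467 and 4567 counts, at 60.7, 62.3 and 55.8 CPM, at least 1421-fold higher against a floor of 3 counts per control library, and were the most even of the 10 genes.

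Inside the cell, Rgcc, a regulator of the cell cycle also known as RGC-32, was scarce in control ECs. It was 0.342, 0.372 and 0.217 CPM in controls (28, 23 and 16 counts) and 377, 1049 and 865 CPM in HSC-KO mice, with a log2 fold change of 11.26 (SE 0.56). Fam107a, an actin-associated protein of stress responses, was at 0 counts in controls and at 1951, 1258 and 1027 counts (20.7, 17.6 and 12.6 CPM) in HSC-KO mice, at least 404-fold higher. Meox2, a homeobox transcription factor of heart and muscle capillary ECs, was also at 0 in controls. It reached 115, 312 and 281 counts in HSC-KO mice (1.22, 4.35 and 3.44 CPM), at least 71.6-fold higher, at a low absolute level.

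Stc1 (stanniocalcin 1, a secreted glycoprotein hormone) and Plod2 (a lysyl hydroxylase that modifies collagen telopeptides) were the remaining members. The gain of Stc1 was the least even of the 10. Stc1 was 5.22, 8.65 and 8.54 CPM in controls and 34.6, 278 and 23.3 CPM in HSC-KO mice. One library, HSC-KO replicate 2, lay far above the others, and without it the log2 fold change fell from 3.91 (SE 0.95) to 1.96. Xist, read here for sex, was at a log2 CPM of -6.64 in that library and 4.67 and 5.42 in HSC-KO replicates 1 and 3. The part of sex in the Stc1 values was not tested. Stc1 no longer met the DEG rule when any of the 3 control libraries was left out, but still met it without HSC-KO replicate 2. Nothing is read from these calls either. Plod2 was 0.842, 0.841 and 0.502 CPM in controls and 2.69, 4.86 and 3.44 CPM in HSC-KO mice, a ratio of means of 5.03 (log2 fold change 2.33, SE 0.37).

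Set per kilobase of exon, the levels in HSC-KO ECs fell into steps. Ly6a (2194 ± 421 CPM per kb, mean ± SD, n = 3) and Ly6c1 (2023 ± 245) led and overlapped each other, followed by Rgcc (832 ± 378) and Cd34 (115 ± 31.3), which overlapped neither neighbour. Lrrc3b (29.4 ± 1.67), Prnd (29.01 ± 16.1) and Stc1 (26.7 ± 34.3) overlapped in turn. Fam107a (4.38 ± 1.06) stood alone below them, and Meox2 (1.27 ± 0.683) and Plod2 (0.679 ± 0.204) overlapped at the bottom. In control ECs the order was Ly6a (755 CPM per kb), Cd34 (3.89), Ly6c1 (3.64), Stc1 (1.78), Rgcc (0.338) and Plod2 (0.135). On the same scale the pan-endothelial gene Pecam1 was 79.3 in control and 141 in HSC-KO ECs. Thus Cd34 lay far below Pecam1 in control ECs and near it in HSC-KO ECs, while Meox2 and Plod2 stayed low in both groups.

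The 3 HSC-KO EC libraries did not rank alike for all members. Replicate 1, the library with the highest sinusoidal sum, was the lowest of the 3 for Cd34, Rgcc, Prnd, Meox2 and Plod2 and the highest for Ly6c1, Ly6a and Fam107a. Its Rgcc level was 377 CPM against 1049 and 865 CPM, and its Meox2 level was 1.22 CPM against 4.35 and 3.44 CPM. Lrrc3b varied by 1.12-fold over the same libraries, whereas the sinusoidal sum without Dnase1l3 varied from 2406 to 6633 CPM. Summed without Ly6a, the members were 4974, 5533 and 5341 CPM in HSC-KO replicates 1, 2 and 3 and 38.7 to 49.0 CPM in controls. The role of the sinusoidal sum in these differences was not tested.

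**Figure D2:**
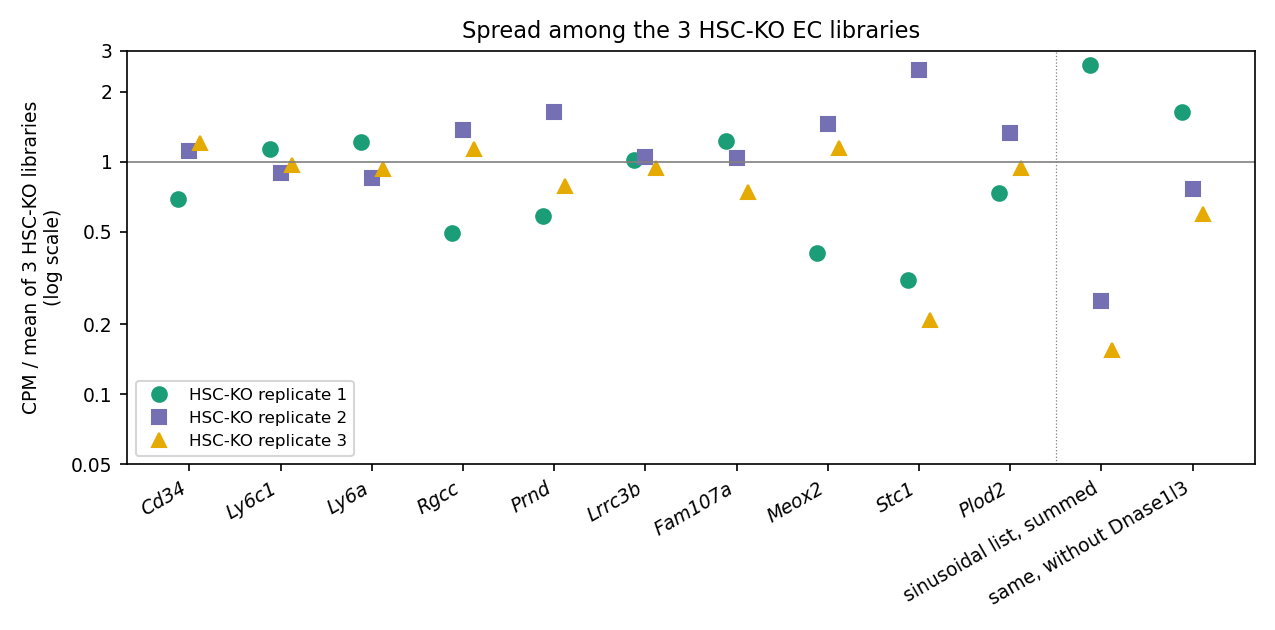
CPM of each member in the 3 HSC-KO EC libraries divided by their mean (log axis), with the summed sinusoidal list, with and without Dnase1l3, at the right. Replicate 1 is low for Rgcc and Meox2, replicate 2 is high for Stc1, the 3 libraries lie close together for Lrrc3b, and the sinusoidal sum is highest in replicate 1, by less once Dnase1l3 is left out.

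Marks of other cells were summed in the same EC libraries. The macrophage list was 27.9 to 32.3 CPM in controls and 0.330 to 1.81 CPM in HSC-KO mice, and the hepatocyte list 57.2 to 102 CPM against 37.4 to 54.3 CPM. The lymphatic EC list was 3.69 to 7.36 CPM in controls and 25.6 to 40.5 CPM in HSC-KO mice, with 3 of its 4 genes called higher (background 7.68%). Most of its rise was Ccl21a (means of 1.37 and 16.8 CPM). Its 4th gene, Prox1, was not called, at 1.15 to 2.67 CPM against 1.56 to 1.63 CPM (log2 fold change -0.15, SE 0.38). The monocyte list was 15.1 to 15.2 CPM in controls and 86.1 to 119 CPM in HSC-KO mice, of which Ly6c2, the paralog of Ly6c1, was 62.2 to 77.0 CPM. Of its 3 tested genes, Ly6c2 and Plac8 were called higher, Plac8 from 10.8 to 13.5 CPM in controls to 17.2 to 39.1 CPM (log2 fold change 1.14, SE 0.30). The portal fibroblast list was 6.61 to 6.86 CPM against 11.7 to 19.4 CPM, with Dpt called higher (log2 fold change 2.16, SE 0.45), and the smooth muscle list 2.20 to 2.49 CPM against 2.60 to 4.16 CPM. The stellate and mural list was 29.4 to 108 CPM in controls and 33.0 to 49.6 CPM in HSC-KO mice, with Lrat called lower (-1.65, SE 0.36). In the arterial EC list Gja4 was called lower, from 355 to 801 CPM in controls to 70.4 to 239 CPM (-2.06, SE 0.53). The other arterial genes were not called, among them Efnb2 at 67.2 to 134 CPM against 149 to 189 CPM and Gja5 at 2.80 to 8.55 CPM against 5.27 to 33.2 CPM, so the list did not move in one direction. T and NK cell genes reached at most 0.243 CPM and B cell genes at most 0.792 CPM. The part of lymphatic, monocytic, fibroblast or smooth muscle cells in the gain of the members was not tested.

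Other genes of continuous capillaries were taken from a list of 25, of which 24 were found and tested in ECs. Of these, 16 were DEGs in the higher direction (background 7.68%), 3 in the lower (background 6.01%) and 5 were not called. The median log2 fold change was 3.49, also with the 4 genes at or under the floor in controls set to their bound, beside 0.00 for all tested genes. Emcn, Apln and Aplnr in this list, like Cd34, were named by the study on these samples, so the list is not independent evidence of its direction. Aplnr, the apelin receptor, rose from 0.0543 to 0.330 CPM in controls to 333 to 894 CPM in HSC-KO mice (log2 fold change 11.68, SE 0.74, edgeR adjusted p = 0.000106). Rbp7, a retinol-binding protein gene, and Aqp7, a glycerol channel gene, were at 0 in controls and at least 319-fold and at least 259-fold higher, and the potassium channel Kcna5 was at least 545-fold higher.

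Not every capillary gene moved that way. Fabp5 (log2 fold change -1.15), Aqp1 (-2.97) and Slco2a1 (-3.30) fell. Cd36 (0.10), Cav2 (0.39), Gpihbp1 (-0.66), Cd300lg (-0.68) and Btnl9 (-0.65) were not called. The 15 sinusoidal genes gave 12 DEGs in the lower direction (background 6.01%) and none in the higher, with a median of -3.41. The 3 not called, Stab2 (-2.58), Fcgr2b (-3.62) and Dnase1l3 (-3.41), each had their highest HSC-KO level in replicate 1, and without that replicate all 15 were called lower. Gata4, Maf, Stab2, Fcgr2b and Mrc1 were named by the study on these samples, so this list is not independent evidence of its direction either.

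**Figure D3:**
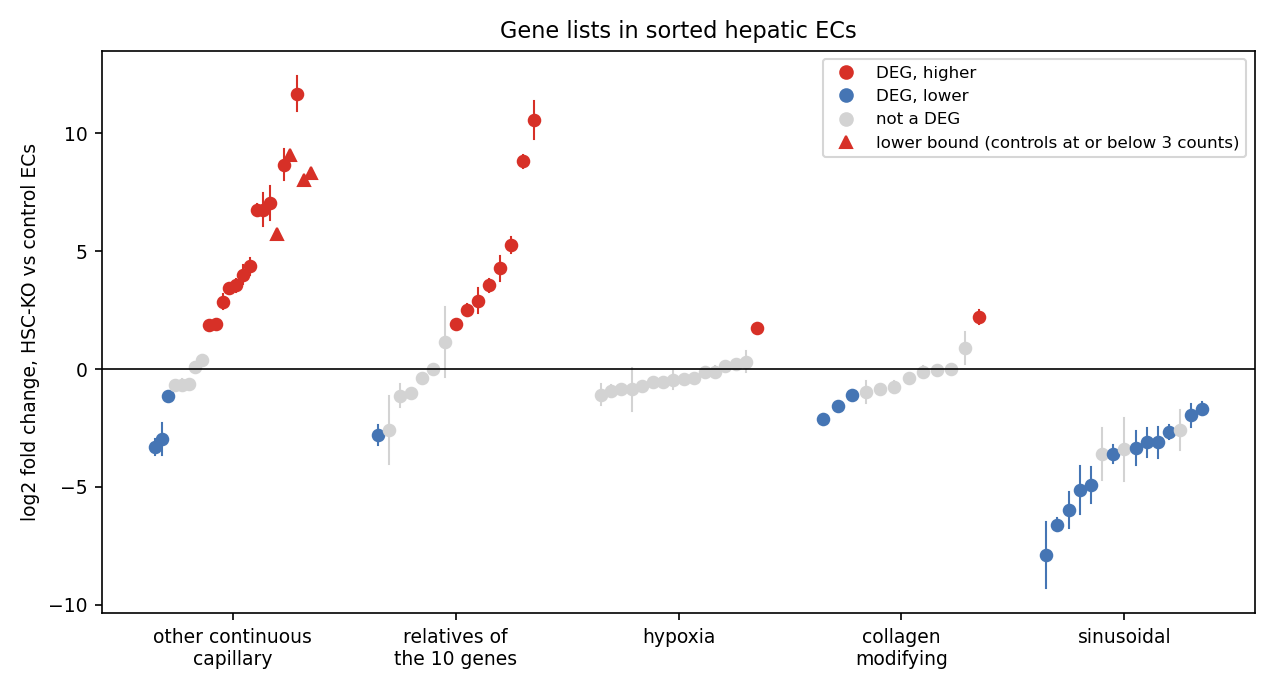
log2 fold change (HSC-KO against control ECs) of the tested genes in 5 lists, sorted within each list, with bars of 1 SE. Red and blue points are DEGs, grey points are not, and triangles are lower bounds for genes at or below 3 counts in controls. The other continuous capillary genes lie mostly above 0, the sinusoidal genes all below 0, and the hypoxia genes mostly somewhat below 0, with 1 DEG above it.

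The close relatives of the members gave a family by family picture. Of 22 relatives found, 15 were tested, of which 8 were called higher (background 7.68%), 1 lower (background 6.01%) and 6 were not called. Emcn and Podxl, both called higher, are also counted in the list of other continuous capillary genes. In the Ly6 family, Ly6c2 (log2 fold change 8.82, SE 0.28), Ly6i (4.27, SE 0.53) and Ly6e (2.50, SE 0.24) rose with Ly6c1 and Ly6a. Ly6g and Ly6k had no count in any EC library, Ly6d and Ly6h were too low to test, and Ly6f was not called (-2.58, SE 1.44). Reads shared between Ly6 copies may be split differently by other counting, so the values of single Ly6 genes are uncertain.

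Prnp, the prion protein gene next to Prnd, rose from 1.32 to 2.99 CPM in controls to 62.2 to 94.7 CPM (log2 fold change 5.27, SE 0.35, edgeR adjusted p = 0.000117). Meox1, the paralog of Meox2, rose as well. It was 0.391, 0.146 and 0 CPM in controls and 247, 270 and 325 CPM in HSC-KO mice (log2 fold change 10.56, SE 0.81). Emcn (3.55) and Podxl (1.89), sialomucins like Cd34, and Stc2 (2.90) rose as well. Lrrc3, the paralog of Lrrc3b, moved in the other direction (-2.81, SE 0.42), and Fam107b, the paralog of Fam107a, was not called (-1.13, SE 0.49, adjusted p = 0.155). Cd164 had a log2 fold change of -0.999, just inside the fold limit, and was not called.

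Stc1 and Plod2 are also known as genes induced by low oxygen and, for Plod2, as part of the collagen-modifying machinery. Of 16 tested hypoxia genes, 1 was called higher, the glucose transporter gene Slc2a1 (log2 fold change 1.73, SE 0.22), and none lower, with a median of -0.45. A share of 1 in 16 is near the background of 7.68% called higher. Without HSC-KO replicate 1 the hypoxia DEGs numbered 2, 1 higher and 1 lower. Vegfa (-1.09), Egln3 (0.31), Adm (-0.46) and Ldha (0.20) were not called. P4ha1 (-0.86), Pdk1 (-0.92) and Ero1l (-0.72) had an edgeR adjusted p below 0.05 but lay inside the fold limit. Of 12 tested collagen-modifying genes, 1 was called higher (background 7.68%), the collagen chaperone gene Serpinh1 (2.21, SE 0.30), and 3 lower (background 6.01%), Loxl3 (-2.14), Loxl2 (-1.58) and Crtap (-1.12), with a median of -0.57. The other lysyl hydroxylase genes were at 315 to 390 CPM (Plod1) and 87.3 to 113 CPM (Plod3) in controls and were not called (-0.37 and -0.01).

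Whole liver held the members at trace level, and the gain was visible there for some of them. In bulk tissue, fewer cells of a type and less RNA per cell cannot be told apart. The filter on low counts was passed by 8 members and left out Prnd and Meox2. In all, 5 met the DEG rule in the higher direction (Cd34, Ly6c1, Rgcc, Lrrc3b and Stc1), beside 1.03% of the 17118 genes tested. Of the 10, 7 were higher without overlap, beside 8.8% of all tested genes. Among them were Prnd, whose lowest HSC-KO library held 1 count, and Fam107a, whose lowest HSC-KO library was 1.13 times the highest control. The low whole liver level was part of the choice, so these counts are a description too. Lists of other cells also differed between the livers. The stellate and mural list was 246 to 331 CPM in controls and 432 to 484 CPM in HSC-KO mice with none of its 7 genes called, the hepatocyte list 93725 to 115670 CPM against 121150 to 164090 CPM, mostly Alb, and the macrophage list 301 to 536 CPM against 25.7 to 33.6 CPM. Their part in the liver values of the members was not tested.

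Cd34 in whole liver was 3.21, 0.612 and 2.63 CPM in controls and 27.1, 33.2 and 20.1 CPM in HSC-KO mice, a ratio of means of 12.5 (log2 fold change 3.63, SE 0.55). Ly6c1 was 0.679, 0.599 and 0.465 CPM against 22.8, 24.6 and 20.95 CPM, a ratio of 39.2 (5.28, SE 0.20). Both genes were separated in every library, and Ly6c1 was the more even of the pair within each group. Summed with Ly6c2, Ly6c1 had a log2 fold change of 4.02, since Ly6c2 took a larger share of the pair in control liver. Ly6a did not follow, at 19.9, 19.3 and 21.001 CPM in controls and 24.1, 22.6 and 17.7 CPM in HSC-KO mice. Its groups overlapped, and its log2 fold change of 0.10 (SE 0.14) became -0.00913 when libraries were scaled by total counts alone.

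Rgcc held 11, 0 and 0 counts in control livers and 708, 506 and 463 counts in HSC-KO livers (9.49, 6.02 and 6.45 CPM). Lrrc3b held 0 counts in controls and 66, 185 and 90 counts in HSC-KO livers, at least 43.6-fold higher. Stc1 held 0, 0 and 4 counts against 202, 215 and 53 counts. These 3 genes were thus near or at 0 in control liver and present in every HSC-KO liver.

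Prnd in whole liver held 0 counts in controls and 144, 1051 and 1 counts in HSC-KO mice, while Prn held 4, 5 and 0 against 215, 0 and 121 counts. The sum of the pair was 0.0362, 0.0652 and 0 CPM in controls and 4.81, 12.5 and 1.70 CPM in HSC-KO mice, so the spread of Prnd between HSC-KO livers narrowed once the overlapping gene was added. HSC-KO replicate 3, with the lowest sum of these livers, had a Xist log2 CPM of -2.50, against 8.24 to 9.47 in all other liver libraries. The part of sex was not tested. Fam107a held 4, 0 and 20 counts against 52, 21 and 91 counts. Meox2 (17, 0 and 0 against 8, 40 and 5 counts) and Plod2 (1.10, 0.795 and 0.820 against 1.72, 1.24 and 0.878 CPM) overlapped between groups. Leaving out single liver libraries changed the calls of Cd34, Stc1 and Prnd, and without HSC-KO replicate 1 the count of called members was 3 (Ly6c1, Rgcc and Lrrc3b).

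**Figure D4:**
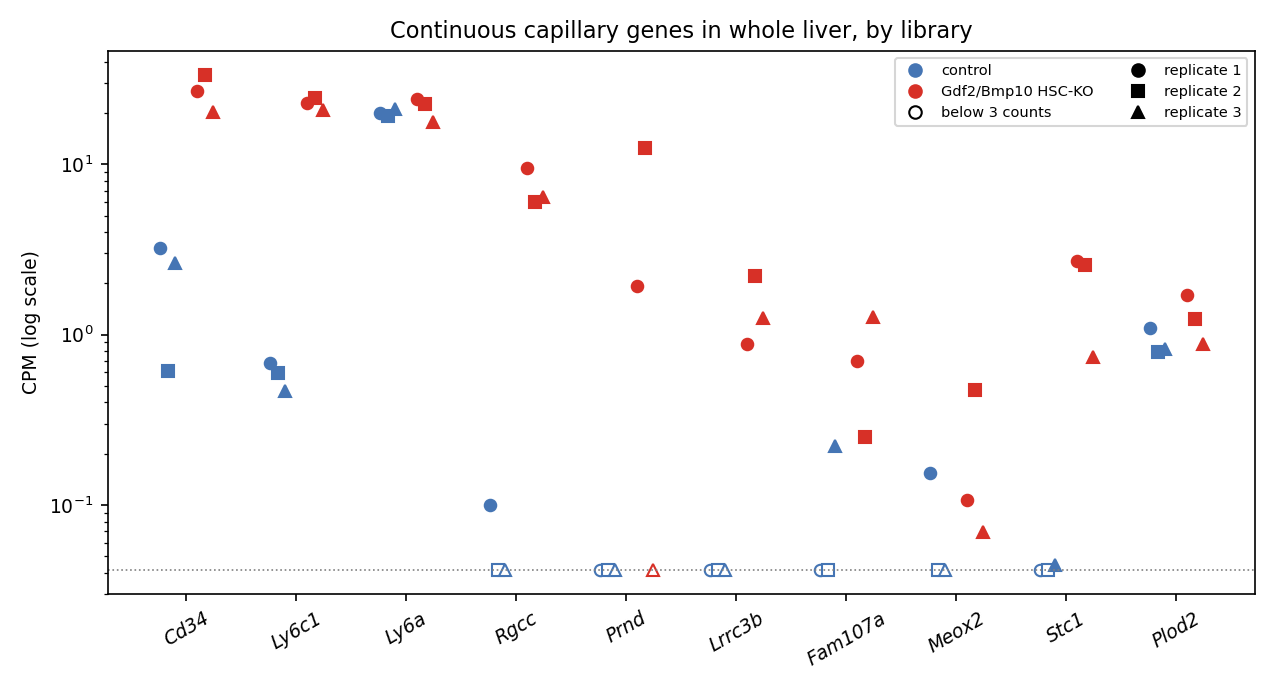
CPM (log axis) of the 10 genes in each control (blue) and HSC-KO (red) whole liver library, with the replicate given by the symbol shape and open symbols for libraries below 3 counts. Cd34, Ly6c1, Rgcc, Lrrc3b and Stc1 separate by group, whereas Ly6a, Meox2 and Plod2 overlap.

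The liver level was then set against the EC level of HSC-KO mice, from tables that were normalised separately and from mice of different age. The 10 summed pan-endothelial genes stood in liver at 3.28% of their level in ECs, with single genes from 1.13% (Egfl7) to 8.71% (Cdh5). By group means, 6 members fell within that range of single genes, namely Cd34 (3.19%), Lrrc3b (2.43%), Stc1 (1.79%), Fam107a (4.36%), Prnd (5.17%, or 6.81% with Prn added) and Meox2 (7.25%). Some of these shares rested on 1 library. Without HSC-KO EC replicate 2 the share of Stc1 was 6.92%, and without HSC-KO liver replicate 2 that of Prnd was 1.04%, below the range, that of Prnd and Prn summed 3.49%, within it, and that of Meox2 2.94%. The summed pair reached 9.94% without HSC-KO EC replicate 2 and 9.30% without HSC-KO liver replicate 3, above the range. Without HSC-KO liver replicate 3 Fam107a was 2.79% and Meox2 9.71%, above the range. Ly6c1 (0.671%), Ly6a (0.813%) and Rgcc (0.959%) lay below the range, Rgcc at 1.18% without HSC-KO EC replicate 2, and Plod2 (34.9%) above it. In control mice Plod2 was 0.904 CPM in liver and 0.728 CPM in ECs, beside 1.28 CPM in HSC-KO liver. The source of its liver signal was not tested. The pan-endothelial sum in liver was 376 to 442 CPM in controls and 372 to 426 CPM in HSC-KO mice, so the groups overlapped. Its genes did not move together, and the sum is no measure of EC content. Pecam1 was 30.7 to 37.3 CPM in controls and 58.9 to 77.6 CPM in HSC-KO mice, and Tie1 and Robo4 were likewise higher without overlap, whereas Eng (101 to 112 against 62.2 to 71.3 CPM) and Ptprb (88.9 to 130 against 45.2 to 56.8 CPM) were lower.

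**Figure D5:**
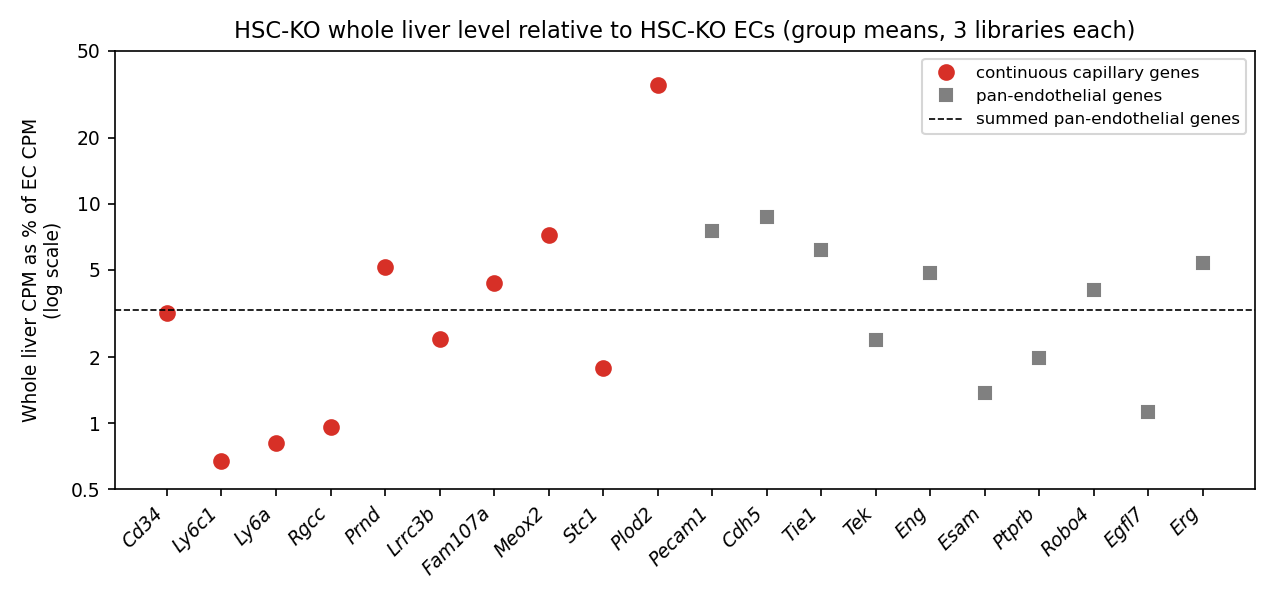
Whole liver CPM as a percent of EC CPM (log axis) in HSC-KO mice, from group means of 3 libraries each, for the 10 members (red circles) and 10 pan-endothelial genes (grey squares), with the dashed line at 3.28% for the summed pan-endothelial genes. Ly6c1, Ly6a and Rgcc lie below 1% and Plod2 at 34.9%.

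In liver macrophages, where the members were tested, none of them was called higher. In macrophages of HSC-KO mice 4 members passed the filter (Cd34, Ly6c1, Ly6a and Rgcc), and 0 met the DEG rule with edgeR, 0 with DESeq2 and 0 had an unadjusted edgeR p below 0.05, beside 11.7% of 16337 genes called and 33.1% with an unadjusted p below 0.05. Cd34 was 2.68, 2.15 and 1.29 CPM in controls and 0.741, 0.189 and 1.53 CPM in HSC-KO mice (log2 fold change -1.32, SE 0.70, edgeR adjusted p = 0.238). With single libraries left out, its value ran from -2.14 to -0.85. Ly6c1 was 0.768, 2.27 and 1.40 CPM against 1.40, 0.650 and 2.55 CPM (0.05, SE 0.60, adjusted p = 0.965). Both overlapped between groups and lay at a few CPM, and the sort gate for macrophages excluded Ly6C+ cells.

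Ly6a was the one member abundant in macrophages, at 273, 425 and 947 CPM in controls and 140, 537 and 345 CPM in HSC-KO mice. The groups overlapped and the log2 fold change was -0.69 (SE 0.56, edgeR adjusted p = 0.441), but with Xist as a covariate for the mixed sexes Ly6a was called lower (-1.34, adjusted p = 0.016). With single libraries left out, its value ran from -1.18 to -0.04 and it was not called. Rgcc held 3, 60 and 34 counts in controls and 139, 82 and 135 counts in HSC-KO macrophages, which did not overlap, as for 20.7% of tested genes in the higher direction (1.56, SE 0.89, adjusted p = 0.269). The 6 untested members were at or near 0. Prnd had no count, Lrrc3b 13 counts in 1 HSC-KO library, Fam107a 7 counts in 1 HSC-KO library, and Meox2, Stc1 and Plod2 at most 14 counts in any library.

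In Smad4FF cKO macrophages 6 members were tested and 1 met the rule, beside 5.43% of 17517 genes (2.67% in the lower direction). Ly6a was 327, 617 and 400 CPM in Smad4FF controls and 124, 217 and 75.8 CPM in cKO mice, lower in all 3 cKO libraries than in any control, as were 14.5% of tested genes (log2 fold change -1.69, SE 0.40, edgeR adjusted p = 0.0453). The call stood close to the limit. It was lost with library size alone (adjusted p = 0.053) and in 5 of the 6 fits that left out 1 library, each library except cKO replicate 2, with adjusted p of 0.0667 to 0.16 and log2 fold changes of -1.39 to -1.89.

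Stc1 held 13, 0 and 16 counts in Smad4FF controls and 29, 54 and 32 counts in cKO macrophages, higher without overlap like 15% of tested genes, but was not called (1.96, SE 0.97, edgeR adjusted p = 0.301). Cd34 (-0.51, adjusted p = 0.656), Ly6c1 (-0.13, 0.897), Rgcc (0.89, 0.555) and Plod2 (0.49, 0.715) were not called in the same edgeR fit. Without cKO replicate 2, the library with the highest Cd34 and Rgcc, Cd34 was called lower (-1.41, edgeR adjusted p = 0.0391) and the value of Rgcc turned to -0.14. That library also held the most T and NK cell RNA (summed list 214 CPM, against 78.4 and 51.6 CPM in the other cKO libraries) and the most hepatocyte RNA (397 against 138 and 116 CPM), whose part in its member values was not tested. Lrrc3b, Fam107a and Meox2 had no count in any of the 6 libraries, which allows up to 3 counts in each, and Prnd had at most 2 counts.

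The differences between both macrophage comparisons were tested directly as an interaction over the 12 libraries. None of the 6 tested members was called by edgeR, beside 2.61% of 18149 genes, and 1 member, Plod2, had an unadjusted p below 0.05, as had 16.3% of all genes. Plod2 had 0 counts in HSC-KO controls and 8, 6 and 14 counts in HSC-KO macrophages, against 7 to 12 counts in Smad4FF controls and 11 to 15 in cKO macrophages (adjusted p = 0.0854). For Ly6a the difference was 1.05 on the log2 scale (SE 0.77, adjusted p = 0.556), so a fall in cKO macrophages alone was not shown.

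The macrophage libraries held EC genes at different levels. Without Cdh5, which control macrophages also expressed, the pan-endothelial sum stood at 0.467% to 1.91% of its EC level in macrophages of the HSC-KO experiment and at 3.57% to 12.7% in those of the Smad4 experiment. In macrophages of HSC-KO mice 57.6% to 85.3% of this sum was Eng. Without Eng as well, set aside after its values were seen, the sum stood at 0.474% to 1.95% in controls, 0.0788% to 0.495% in HSC-KO mice and 3.98% to 13.9% in the Smad4 experiment. In both Smad4FF groups the members Lrrc3b, Fam107a and Meox2 were at 0, as in control ECs. Ly6a stood at 910 CPM in control ECs, and that level at the share of EC genes without Cdh5 in each library comes to 32.5 to 115 CPM in Smad4FF controls and 89.8 to 114 CPM in cKO mice. The Ly6a measured was 327 to 617 CPM in the controls and 75.8 to 217 CPM in cKO mice. In cKO mice it was 124 CPM beside 114 CPM in replicate 1, 217 beside 110.99 CPM in replicate 2 and 75.8 beside 89.8 CPM in replicate 3. In the HSC-KO experiment the same calculation, with Eng kept in the sum, gave 4.25 to 17.4 CPM in controls and 12.4 to 27.2 CPM in HSC-KO mice. The measured Ly6a there was 273 to 947 and 140 to 537 CPM. The calculation assumes that the sum tracks EC content, and it sets side by side tables that were normalised separately. T and NK cell genes summed to 4.32 to 16.9 CPM in controls of the HSC-KO experiment and 34.8 to 127 CPM in macrophages of HSC-KO mice, with 3 of 5 called higher (beside 11.7% of genes called in either direction), and to 48.6 to 122 CPM and 51.6 to 214 CPM in Smad4FF controls and cKO mice. In macrophages of HSC-KO mice the portal fibroblast genes Thy1 and Dpt and the lymphatic EC genes Pdpn and Ccl21a were also called higher. Of the monocyte genes, Ccr2 and Ly6c2 were called higher and Plac8 lower. Krt7 (cholangiocyte list) and Cd79b (B cell list) were called higher as well. The part of EC RNA in the Cd34, Ly6c1 and Ly6a values of macrophages was not tested. Nor was that of T or NK cell RNA, or RNA of the other listed cells, in any of them.

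Over all 24 libraries, the members were compared with their own mean profile (z-scored log2 CPM) as a description, since the libraries share cell type, table and depth. Ly6c1 followed it most closely (Pearson r = 0.988), then Lrrc3b (0.952), Cd34 (0.943), Prnd (0.943), Rgcc (0.928), Fam107a (0.921), Meox2 (0.901), Stc1 (0.861) and Plod2 (0.742). Ly6a was least like the others (0.429), being abundant in macrophages and in control ECs as well. Outside the members, the genes most like the profile over these libraries were Fam101b (0.984), Cd200 (0.979), Gm3558 (0.975), Rhbdl2 (0.972) and Lrrc55 (0.966).

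In all, 4 members share exonic bases with a gene on the opposite strand, and whether the counting used strand is not given in the sources used here. The shares of the exonic length were 2.03% for Cd34 (Gm16897), 20.5% for Lrrc3b (B230110C06Rik), 6.42% for Plod2 (Gm38391) and 5.46% for Stc1 (Gm41192). In HSC-KO ECs the partner of Lrrc3b held 129, 104 and 135 counts beside 4467 to 5720 for Lrrc3b. That of Cd34 held 329, 383 and 526 counts beside 54630 to 82445 for Cd34. That of Plod2 held 42, 16 and 69 counts beside 254, 348 and 281 for Plod2. The partners were therefore scarce beside Lrrc3b and Cd34 but less so beside Plod2, and reads of sense and antisense genes cannot be told apart without strand.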

How the data were processed

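The authors deposited 4 tables of raw counts per gene, 1 for each comparison, aligned with HISAT2 to mm10 (GRCm38) and counted with featureCounts after FastQC, per the submitters' processing notes, which also name DESeq2. Versions, annotation release, strand and multimapping settings are not given in the sources used here, and the library kit is named differently in the labels and the methods. Each group had 3 mice, described as independent biological replicates.

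From the deposited counts, edgeR 4.0.16 in R 4.3.3 (TMM scaling, filterByExpr with a minimum count of 10 and a minimum total of 15, glmQLFit and glmQLFTest) was fitted to each table over all genes, with Benjamini-Hochberg adjustment over all genes tested and the thresholds of the study (adjusted p below 0.05, log2 fold change beyond 1). CPM are TMM-scaled. A floor of 3 counts per library, which covers counting error only, was used for genes absent from controls. DESeq2 1.42.0, other scalings and filters, single libraries left out, a replicate block, Xist as a covariate and sums with Prn or Ly6c2 were the alternatives. The fits were tested on simulated counts.

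The members and the gene lists were chosen with earlier results of these data known. The text names all members, the leading DEGs of each list (up to 4, and those needed to account for a list), the relatives of the members and the 5 genes most like the member profile.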

Additional observations from a re-analysis of the deposited data

How the results depend on the processing

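Counts of called genes depended on the filter and on single libraries. With at least 10 counts required in every library, which removes genes at 0 in controls, 6 members, 12 other continuous capillary genes and 5 relatives were called in ECs and 2 members (Cd34 and Ly6c1) in liver. With Xist as a covariate, 2 hypoxia genes were called in ECs and 1 member (Ly6a, lower) in HSC-KO macrophages. DESeq2 called 794 DEGs in liver against 425 and 1030 in the macrophage interaction against 473. With library size alone, no member was called in Smad4FF cKO macrophages and Ly6a in liver changed sign (-0.00913).

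The same replicate numbers did not pair the samples (correlation of deviations 0.0334 to 0.117 in ECs, where every sample was nearest its own number, and -0.107 to 0.162 elsewhere). With a replicate block, liver DEGs numbered 271 and called liver members 2 (Ly6c1 and Rgcc), while 2054 DEGs and 10 members were called in ECs.

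Leaving out 1 library at a time gave 1664 to 2496 DEGs in ECs, 188 to 451 in liver, 1399 to 1985 in HSC-KO macrophages, 566 to 909 in Smad4FF cKO macrophages and 233 to 556 in the interaction. Called members numbered 9 to 10 in ECs, 3 to 6 in liver, 0 in HSC-KO macrophages and 0 to 2 in Smad4FF cKO macrophages. In ECs, 18 to 19 other continuous capillary genes, 11 to 15 sinusoidal, 1 to 2 hypoxia, 3 to 4 collagen-modifying genes and 9 to 13 relatives were called. Ratios of liver to EC levels were recomputed with library size alone and without single libraries, alternatives chosen after seeing the data, and moved by over 1.5 times for Stc1 (1.79% to 6.92% without HSC-KO EC replicate 2), Fam107a (4.36% to 2.79% without HSC-KO liver replicate 3), Prnd (5.17% to 1.04%), Meox2 (7.25% to 2.94%) and Prnd and Prn summed (6.81% to 3.49%), the last 3 without HSC-KO liver replicate 2.

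The main limits were 3 mice per group, members chosen on the EC and liver values, reads shared by Prnd and Prn and within the Ly6 family, and low counts of Meox2, Plod2 and Stc1 outside ECs.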
